A study of Homo sapiens with 6 samples.

Results

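The 42 genes described here encode the machinery that copies nuclear DNA: the proteins that license replication origins, the replisome that unwinds and copies the template, the enzymes that supply deoxynucleotides, and the transcription factor E2F1. They were fixed as a list by name, and a gene counted as measured when the platform annotation tied at least 1 probe set to that symbol alone. All 42 were measured, among 11963 genes with a single symbol, by 63 of 19065 such probe sets. The probe set with the highest mean of log2(intensity + 32) over the 6 arrays stood for its gene. Affymetrix arrays were hybridised with total RNA of a pair of human colon cancer lines, HCT116 and E1, with 3 arrays each. HCT116 is an established colon carcinoma line that the labels call poorly metastatic. E1 is called metastatic and in-vivo derived, and its own cell line label also reads HCT116. No treatment, passage or host of derivation is given for either line. Each phenotype is represented by 1 line, so a difference between the lines cannot be told apart from a difference between metastatic and poorly metastatic cells. The sources used here do not say whether the arrays of a line came from separate cultures, so the p-values speak only of array-to-array spread, part or all of which may be technical.

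In dividing cells the origin recognition complex (ORC) marks replication start sites in chromatin, and CDC6 with CDT1 loads onto it the ring-shaped MCM2-7 complex, the inactive form of the replicative helicase. Kinases then recruit CDC45 and the GINS complex to form the active CMG helicase, behind which primase with polymerase alpha, the sliding clamp PCNA with its loader RFC, and polymerases delta and epsilon build the new strands. Transcription of most of these genes is periodic: E2F factors switch them on as cells pass from G1 into S phase, and their summed RNA in a culture rises and falls with its share of cycling cells. In RNA from a whole culture, fewer cells in S phase and less RNA per cell cannot be told apart.

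The arrays differed in quality before any gene of interest was compared. Control probe sets at both ends of the GAPDH transcript gave a 3' to 5' signal ratio between 0.774 and 0.811 on the HCT116 arrays and of 0.803 on E1 array 1, but of 34.1 and 71.9 on E1 arrays 2 and 3. The ACTB ratio was 1.12 on E1 array 1 against 46.1 and 89.9 on the other E1 arrays. Differences of named genes are therefore given with E1 array 1 alone beside them. Of the colon epithelium markers, EPCAM read at least 1691 and KRT18 at least 5677 on every array, whereas the intestinal factors CDX1 and CDX2 read at most 17.2 and 22.5, and KRT8 read 372 and 103 on E1 arrays 2 and 3 against at least 2862 elsewhere. Summed intensities of 9 fibroblast, 9 leukocyte and 6 endothelial markers lay between 303 and 452, 200.4 and 308, and 111 and 189 over all arrays. The brightest of each list, COL1A1, CD3E and ENG, read at most 183, 132 and 74.3, as bright as some dim replication genes, and LUM, LYZ, CD14 and CDH5 read below 10 throughout. The part of other cells in any result was not tested.

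None of the replication genes passed an adjusted p of 0.05 over all genes in the comparison of all 3 E1 arrays with all 3 HCT116 arrays (limma, two-sided), where 50 genes, 0.418% of all, were called. At an unadjusted p under 0.05, 8 of the 42 were lower in E1 (19% of them, against 9.7% of all genes) and 0 were higher (against 5.29%). The 8 were MCM2, MCM4, MCM5, POLD1, POLD2, POLE, TK1 and E2F1. All 42 genes had a mean intensity over 100, which 5802 of the 11963 genes had. With the lowest 40% of genes by mean left out, 8 members were again lower, beside 13.1% of the 7178 genes kept. The difference in log2(intensity + 32), E1 minus HCT116, was negative for 33 of the 42 genes (78.6%, against 50.9% of all genes), with a median of -0.31 beside -0.01 over all genes. All E1 arrays lay below all HCT116 arrays for 7 members (16.7%, against 10.7% of all genes), and all lay above for 0 (against 8.18%). The lower count was 5 without HCT116 array 1, without HCT116 array 3 or without E1 array 3, where 4.89%, 6.06% and 6.25% of all genes were lower, and 12 without E1 array 2, against 6.44% of all genes. The members' median was -0.14 without HCT116 array 1, -0.55 without HCT116 array 2, -0.11 without E1 array 1 and -0.49 without E1 array 2. Subtracting each array's median moved the median of all genes to 0.14 and that of the members to -0.16, with 27 of the 42 negative. With E1 array 1 alone 40 of the 42 were negative, against 6745 of all 11963 genes, with a median of -0.73 beside -0.05 over all genes. E1 array 1 read below every HCT116 array for 32 members (76.2%, against 33% of all genes). In that comparison 0 members passed the adjusted threshold (0.0167% of all genes did), while 9 were lower at an unadjusted p under 0.05 (7.05% of all genes) and 0 higher (4.44%).

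**Figure D1:**
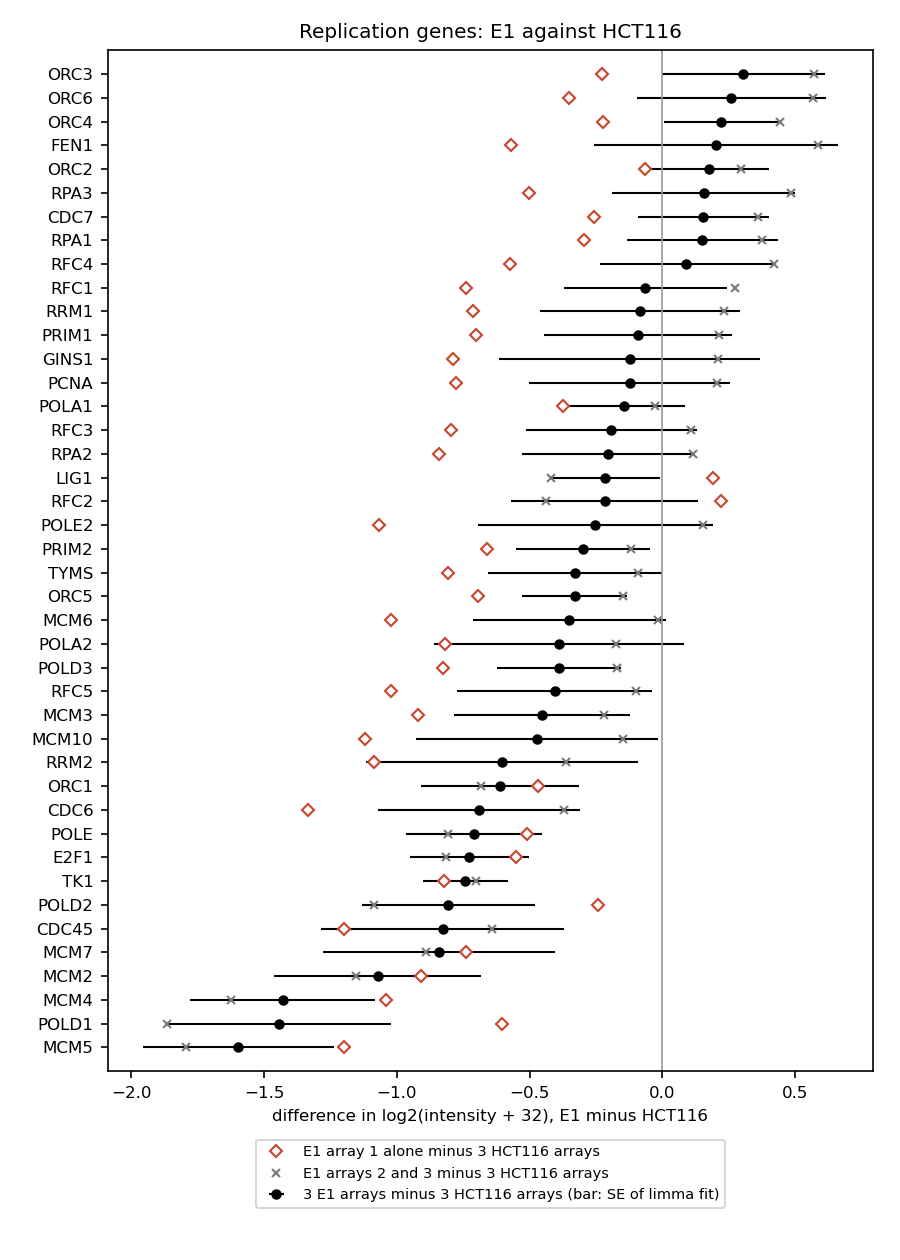
Difference in log2(intensity + 32), E1 minus HCT116, for each of the 42 genes in order of size, with the SE of the limma fit as a bar; open diamonds show E1 array 1 alone and crosses show E1 arrays 2 and 3. MCM5, POLD1 and MCM4 lie lowest at -1.60, -1.44 and -1.43, and the diamonds lie below 0 for 40 of the 42 genes.

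Arrays of the same line differed widely in these genes, and many of the genes were high or low on the same arrays. Averaged over the 42 genes, log2(intensity + 32) was 9.51, 8.75 and 9.25 on HCT116 arrays 1, 2 and 3, and 8.50, 9.22 and 8.69 on E1 arrays 1, 2 and 3, while the mean of all genes stayed between 7.16 and 7.34. E1 array 2 thus lay inside the HCT116 range, and E1 arrays 1 and 3 lay below it. HCT116 array 2 was the lowest of its line for 40 of the 42 members (95.2%, against 44.6% of all genes), by a median of -0.61 from the mean of the other HCT116 arrays. The exceptions were ORC5 and POLD1. In E1, array 2 was the highest for 30 members (71.4%, against 23.4%), and array 3 read below array 2 for 37 (88.1%, against 39.8%). E1 array 1 was the lowest E1 array for 29 (69%, against 40.3%). The 26 measured mitosis genes, such as those of the spindle and its checkpoint, showed similar swings: HCT116 array 2 was lowest for 25 of them and E1 array 2 highest for 23. Their mean on E1 array 1, however, was 8.90, above the 8.61 of HCT116 array 2, whereas the replication genes stood at 8.50 on E1 array 1, below the 8.75 of HCT116 array 2. What these arrays differed in besides their line is not given in the labels. The part of growth state, of culture and of RNA quality in the shared swing was not tested.

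**Figure D2:**
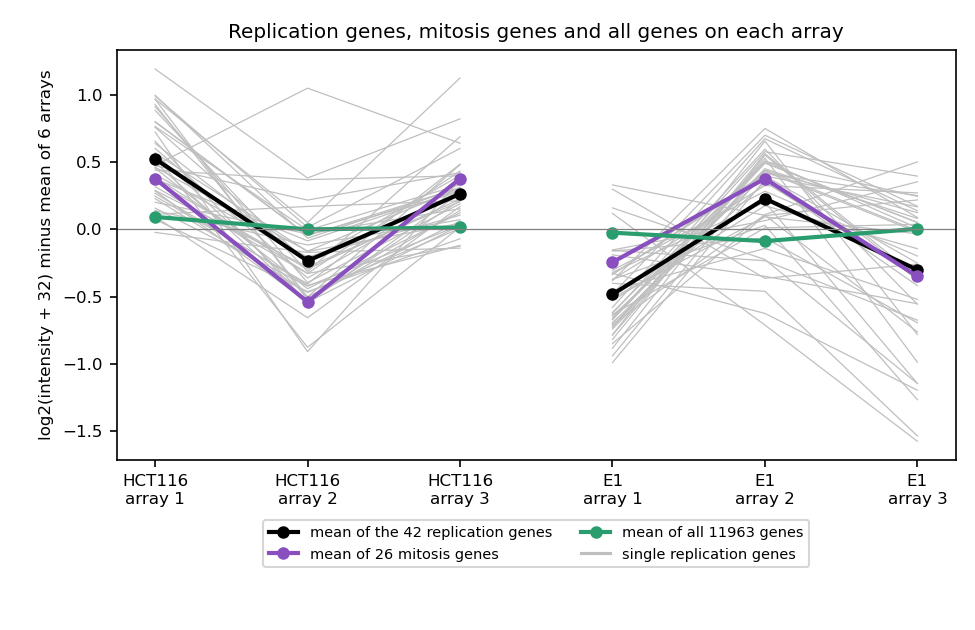
Log2(intensity + 32) on each array minus its mean over the 6 arrays, for each replication gene (grey), their mean (black), the mean of 26 mitosis genes (purple) and the mean of all 11963 genes (green); lines only join the values of a gene or list within a line. The mean of the replication genes is lowest within its line on HCT116 array 2 and E1 array 1, at 8.75 and 8.50. It is highest within its line on HCT116 array 1 and E1 array 2, at 9.51 and 9.22. HCT116 array 3 and E1 array 3 lie between these, at 9.25 and 8.69.

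The origin recognition complex, whose 6 subunits mark origins, contained 0 genes at an unadjusted p under 0.05, with 2 negative and 4 positive differences. ORC1, the subunit whose level is cell cycle dependent, read 231, 99.6 and 173 on the HCT116 arrays and 107, 117 and 64.2 on the E1 arrays. These groups overlap through HCT116 array 2, and the difference was -0.61 (SE 0.30), with -0.47 on E1 array 1 alone. ORC5, an ATP-binding subunit, varied little in HCT116, at 492, 514 and 529.8, and read 304, 516 and 407 in E1. Only E1 arrays 1 and 3 lay below the HCT116 values, with a difference of -0.33 (SE 0.20, adjusted p = 0.49) over all arrays and -0.69 on E1 array 1 alone (SE 0.16, unadjusted p = 0.00942, adjusted p = 0.354 in limma). The other four, ORC2, ORC3, ORC4 and ORC6, stood at 0.18, 0.31, 0.22 and 0.26 over all arrays, but at -0.06, -0.23, -0.22 and -0.35 on E1 array 1 alone.

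The MCM2-7 helicase subunits were all negative, yet to unequal extents. MCM5, which with MCM2 forms the gate of the ring, read 1502, 843 and 1155 on the HCT116 arrays and 476, 456 and 199.7 on the E1 arrays. Every E1 array was below every HCT116 array, by -1.60 (SE 0.36, unadjusted p = 0.00354, adjusted p = 0.154 in limma), and E1 array 1 alone gave -1.20 (SE 0.35). MCM4, a catalytic-core subunit, read 1059.8, 546 and 1184 in HCT116 and 413, 329.7 and 212 in E1, again with no overlap, at -1.43 (SE 0.35, adjusted p = 0.179) and -1.04 on E1 array 1 alone. MCM2 read 2835, 1426 and 2156 in HCT116 against 1082, 1440.3 and 568 in E1. Here E1 array 2 exceeded HCT116 array 2, and the difference was -1.07 (SE 0.39, adjusted p = 0.292), with -0.91 on E1 array 1 alone. MCM7, MCM3 and MCM6 stood at -0.84, -0.45 and -0.35, none with an unadjusted p under 0.05. A further MCM7 probe set, nearly as bright, gave -1.83 (SE 0.62, unadjusted p = 0.0241, adjusted p = 0.233 over single probe sets) and -0.84 on E1 array 1 alone, so whether MCM7 counts among the lower genes depends on the probe set. On E1 array 1 alone the 6 subunits lay closer to each other, from -0.74 for MCM7 through -0.91 for MCM2, -0.92 for MCM3, -1.02 for MCM6 and -1.04 for MCM4 to -1.20 for MCM5. On E1 arrays 2 and 3 they lay further apart, from -0.01 for MCM6 to -1.80 for MCM5, and these are the arrays with high 3' to 5' ratios. Whether the subunits differ from each other was not tested. In the fit without E1 array 1 MCM5 was called lower (adjusted p = 0.0442) and MCM4 stood at an adjusted p of 0.0522, with 7.33% of all genes called lower and 1.64% higher there.

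CDC6, the ATPase that loads the MCM ring, and the helicase partners varied strongly within each line. CDC6 read 834, 451 and 571 on the HCT116 arrays and 218, 609.6 and 339.9 on the E1 arrays. E1 array 1 was less than each HCT116 value while E1 array 2 exceeded HCT116 array 3, and the difference was -0.69 (SE 0.38, adjusted p = 0.45) over all arrays and -1.34 (SE 0.36, adjusted p = 0.374) on E1 array 1 alone. Among the 42 genes that was the lowest value of E1 array 1. CDC45, the CMG component that joins at origin firing, read 378, 164 and 223 in HCT116 and 87.3, 265 and 71.7 in E1. Its E1 arrays 1 and 3 lay below HCT116 and array 2 inside it, with -0.83 (SE 0.46, adjusted p = 0.453) over all arrays and -1.20 on E1 array 1 alone. MCM10, which helps activate the helicase, stood at -0.47 over all arrays and -1.12 on E1 array 1 alone, the GINS subunit GINS1 at -0.12 and -0.79, and the kinase CDC7, which phosphorylates the MCM ring, at 0.15 and -0.26.

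By the brightest probe set of each gene, the clamp and its loader had a role median of -0.16 in the full comparison and of -0.76 on E1 array 1 alone. PCNA, the clamp that holds polymerases on DNA, read 2134, 1029 and 1748 on the HCT116 arrays and 900.0, 2063 and 1589 on the E1 arrays. The groups overlap over nearly their whole range, and the difference was -0.12 (SE 0.38, adjusted p = 0.931), with -0.78 on E1 array 1 alone. RFC1, the large subunit of the clamp loader, had by its brightest probe set the difference nearest 0 of the 42 genes, -0.06 (SE 0.31, adjusted p = 0.962). Its HCT116 arrays read 365, 301 and 347 and its E1 arrays 189, 357 and 478, so E1 array 1 was below and E1 array 3 above HCT116, and E1 array 1 alone gave -0.74 (SE 0.18, adjusted p = 0.361). Another RFC1 probe set, nearly as bright, gave -0.62 (SE 0.36) over all arrays and -1.22 on E1 array 1 alone. Whether RFC1 lies near 0 therefore depends on the probe set. RFC5 read 822, 522 and 736 in HCT116 and 319.8, 884 and 453 in E1, with -0.41 (SE 0.37, adjusted p = 0.673) over all arrays and -1.02 (SE 0.30) on E1 array 1 alone. A dimmer RFC5 probe set gave -0.93 (SE 0.44) over all arrays and -1.28 on E1 array 1 alone, and the dimmest gave 0.13 and -0.05. RFC2, RFC3 and RFC4 stood at -0.22, -0.19 and 0.09, and at 0.22, -0.80 and -0.57 on E1 array 1 alone. Over all arrays a dimmer probe set gave -1.24 (SE 0.26) for RFC2 and -0.29 (SE 0.27) for RFC3.

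Polymerase and primase genes were negative for 9 of 9 members, where 50.9% of all genes were. For 3 of them, all subunits of the delta and epsilon polymerases, every E1 array lay below every HCT116 array, as for 10.7% of all genes. POLD1, the catalytic subunit of polymerase delta, read 212, 331 and 241 on the HCT116 arrays and 158, 75.1 and 26.9 on the E1 arrays. All E1 values were lower, by -1.44 (SE 0.42, unadjusted p = 0.0121, adjusted p = 0.23 in limma), and E1 array 1 alone gave -0.60 (SE 0.28). Without E1 array 1 POLD1 was called at -1.87 (adjusted p = 0.0214 in limma), from the arrays with high 3' to 5' ratios. In that fit 7.33% of all genes were called lower. POLD2, its accessory subunit, was steady in HCT116 at 607, 576 and 588 and read 494, 371 and 181 in E1. Its difference of -0.81 (SE 0.32, adjusted p = 0.323) came to -0.24 on E1 array 1 alone. POLE, the catalytic subunit of the leading-strand polymerase epsilon, read 303, 155 and 207 in HCT116 and 141, 132 and 88.7 in E1. The arrays did not overlap, at -0.71 (SE 0.26, adjusted p = 0.292), and E1 array 1 alone gave -0.51. POLD3, another delta subunit, read 259, 179.6 and 243 in HCT116 and 113, 194 and 198 in E1, overlapping through HCT116 array 2, at -0.39 (SE 0.23, adjusted p = 0.492), and E1 array 1 alone gave -0.83 (SE 0.24). The epsilon subunit POLE2 and the polymerase alpha and primase genes POLA1, POLA2, PRIM1 and PRIM2 stood at -0.25, -0.14, -0.39, -0.09 and -0.30, and at -1.07, -0.38, -0.82, -0.70 and -0.66 on E1 array 1 alone.

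Replication protein A and the enzymes that finish lagging strands had 0 members at an unadjusted p under 0.05, with 2 negative and 3 positive differences. RPA2, the middle subunit of the trimer that coats single-stranded DNA, read 1217, 785 and 981 on the HCT116 arrays and 532, 1248 and 905 on the E1 arrays. E1 array 1 was the lowest of the 6 and E1 array 2 the highest, and the difference was -0.20 (SE 0.32, adjusted p = 0.84), with -0.84 (SE 0.28) on E1 array 1 alone. RPA1 and RPA3, the other subunits, stood at 0.15 and 0.16, and at -0.30 and -0.50 on E1 array 1 alone. FEN1, the flap nuclease, stood at 0.20 and -0.57. LIG1, the ligase that seals the nicks, went the other way, at -0.21 over all arrays and 0.19 on E1 array 1 alone, and was the 1 member whose E1 array 1 value, 271, was above every HCT116 value (24.7% of all genes were).

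Among the enzymes of deoxynucleotide supply TK1 had the smallest p of the 42 genes. TK1, the thymidine salvage kinase of S phase, read 787, 653 and 758 on the HCT116 arrays and 398, 502 and 379 on the E1 arrays. Each E1 array was lower than each HCT116 array with little spread in either line, 732 ± 70.1 (SD, n = 3) against 427 ± 66.2 (SD, n = 3). The difference of -0.74 (SE 0.16, unadjusted p = 0.00282) had an adjusted p of 0.144 in limma over all genes and lay between 0.122 and 0.389 over the 12 alternatives other than leaving out a single array, and between 0.0725 and 0.485 when each array was left out in turn. It was -0.82 on E1 array 1 alone and -0.70 on E1 arrays 2 and 3, so both kinds of E1 array gave similar values. RRM1, the large subunit of ribonucleotide reductase, read 1643, 768 and 1149 in HCT116 and 679, 1563 and 1141 in E1. That overlap left a difference of -0.08 (SE 0.38, adjusted p = 0.959), with -0.71 on E1 array 1 alone. A dimmer RRM1 probe set gave -0.96 (SE 0.35, unadjusted p = 0.0313, adjusted p = 0.254 over single probe sets), with -0.95 on E1 array 1 alone. RRM2, its S-phase partner, stood at -0.60 over all arrays and -1.08 on E1 array 1 alone, and thymidylate synthase, TYMS, at -0.33 and -0.81.

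E2F1, the transcription factor that drives the S-phase programme and is itself an E2F target, read 192, 99.2 and 134 on the HCT116 arrays and 83.6, 71.4 and 57.8 on the E1 arrays. The lines did not overlap, although HCT116 array 2 came near E1 array 1. The difference was -0.73 (SE 0.23, unadjusted p = 0.0158, adjusted p = 0.252 in limma), and E1 array 1 alone gave -0.55 (SE 0.34). A dimmer E2F1 probe set read 164, 65.9 and 87.5 against 28.1, 41.9 and 14.6. It too did not overlap, at -1.16 (SE 0.30, adjusted p = 0.159 over single probe sets), with -1.13 on E1 array 1 alone.

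**Figure D3:**
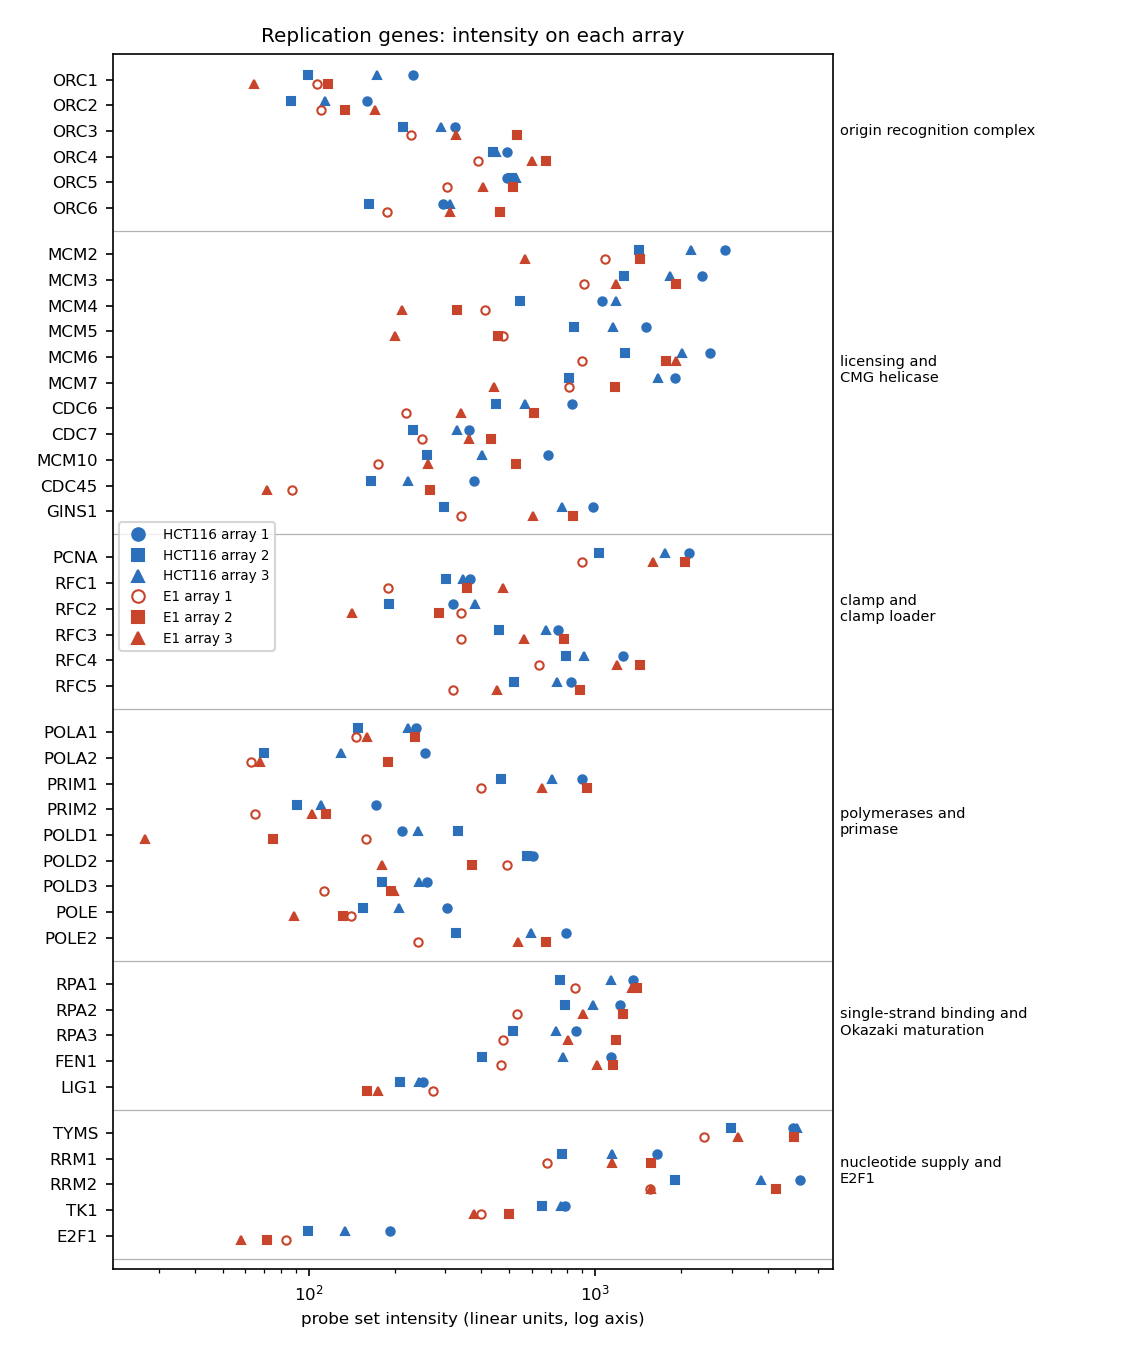
Intensity of each of the 42 genes on each array on a log axis, by role, with HCT116 in blue and E1 in red, and E1 array 1 as open circles. TK1 is separated between the lines, at 653 and above against 502 and below, whereas PCNA spans 1029 to 2134 in HCT116 and 900.0 to 2063 in E1.

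Where a gene had more than 1 bright probe set, these could be compared on each array, and the comparison was made after their values had been seen. Among 12 genes with 14 pairs of probe sets of a mean intensity of at least 100, the log2 difference between the other and the brightest probe set was set against its mean on the HCT116 arrays. It shifted by less than 0.5 on E1 array 1 for 13 of the 14 pairs, but by more than 0.5 on E1 array 2 for 5 and on E1 array 3 for 9. FEN1 showed the largest shifts: its brightest probe set read 468, 1155 and 1015 on E1 arrays 1, 2 and 3, while the dimmer one read 505, 219.9 and 98.1. On the HCT116 arrays the same probe sets read 1138, 402 and 773, and 1215, 379.6 and 809. The difference of FEN1 from HCT116 was therefore 0.20 with one and -1.54 (SE 0.61, adjusted p = 0.285) with the other, but -0.57 and -0.49 on E1 array 1 alone. For MCM7 the shift of the dimmer from the brighter probe set was -0.10, -1.26 and -1.62 on E1 arrays 1, 2 and 3, and for RRM1 it was -0.24, -0.87 and -1.52. MCM5 showed -0.25, -0.82 and -1.38. CDC6 and RFC3 had shifts of 0.13 and -0.27 at their largest in size. The pair of RFC2 probe sets disagreed on E1 array 1 as well, by -1.24: the brighter gave -0.22 over all arrays and the dimmer -1.24 (SE 0.26, adjusted p = 0.105), with 0.22 and -1.02 on E1 array 1 alone. All 4 MCM4 probe sets were negative, between -1.15 and -1.64, and between -0.83 and -1.09 on E1 array 1 alone. With the second brightest probe set in place of the brightest, 12 members were lower at an unadjusted p under 0.05, when 11.4% of all genes were. Where each probe set lies along its transcript was not used here, and the part of the 3' to 5' ratio in these shifts was not tested.

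**Figure D4:**
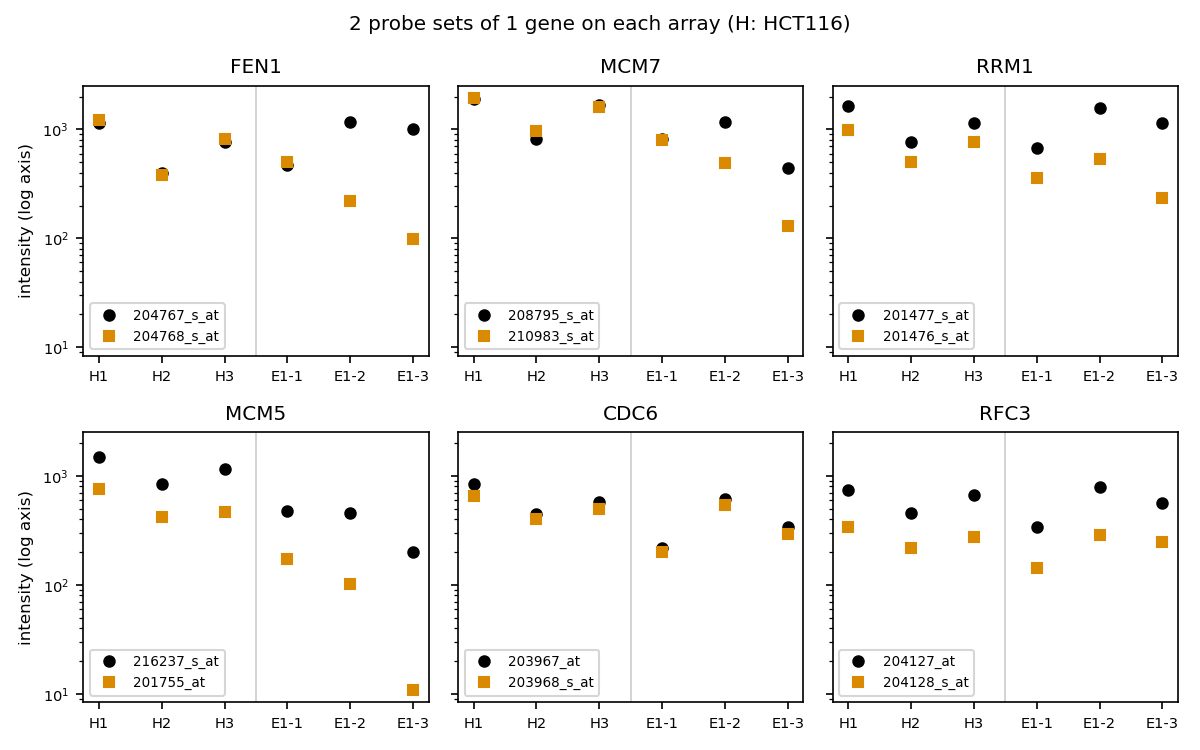
Intensity on a log axis of the brightest and the next probe set of 6 genes on each array (H1 to H3: HCT116, E1-1 to E1-3: E1). The FEN1 probe sets read 468 and 505 on E1 array 1 but 1015 and 98.1 on E1 array 3, while those of CDC6 and RFC3 keep their distance on all arrays.

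Other genes of the replication pathway, on a list of 34 measured genes outside the 42, were counted in the same way: 4 were lower in E1 at an unadjusted p under 0.05 (11.8%, against 9.7% of all genes), 1 was higher (2.94%, against 5.29%) and 0 passed the adjusted threshold in limma, with a median of -0.11 over all arrays and -0.42 on E1 array 1 alone, where 4 were lower and 0 higher. CDT1, the partner of CDC6 in loading the MCM ring, read 418, 254 and 314 in HCT116 and 159, 23.7 and 25.5 in E1. All E1 values were lower, at -2.06 (SE 0.49, adjusted p = 0.175), but E1 array 1 alone gave -0.89. The fit without E1 array 1 gave -2.65 (adjusted p = 0.00285 in limma) and called 7.33% of all genes lower. The histone-fold polymerase epsilon subunit POLE3 stood at -0.87 (SE 0.28) and at -0.95 on E1 array 1 alone, and ATAD5, which helps unload PCNA, at -0.57 (SE 0.19) and -0.59. The GINS subunit GINS4 stood at -0.76 (SE 0.30) and -0.19.

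Because the members moved together between arrays, their promoters were read for the words that E2F factors and the CCAAT-binding factor NF-Y recognise. RefSeq windows of assembly GRCh38.p14, from 250 bases before to 50 bases after an annotated start, were at hand for 37 of the 42 genes. Any of the 8-letter E2F words TTTCCCGC, TTTGGCGC, TTTCGCGC and TTTGCCGC occurred on either strand in a window of 17 of the 37 genes (45.9%), against 3.99% of 27305 genes with such windows. These 27305 genes were not limited to those measured on the arrays. CCAAT on either strand occurred for 23 (62.2%, against 39.7%). TTTGAA, the core of the CHR element of genes expressed in G2 and mitosis, occurred for 1 (2.7%, against 18.2%), and for 12 of 20 mitosis genes (60%), of which 2 held an E2F word. The 250 bases before the start are printed for 7 members, chosen after their values and words were seen. E2F1, POLE and POLD1, with and without an E2F word, had arrays that did not overlap. MCM6, MCM3 and PCNA were lowest within their line on HCT116 array 2 and E1 array 1. Among the E1 arrays MCM3 and PCNA were highest on array 2, but MCM6 on array 3. TK1 had the smallest p. TK1, PCNA and POLD1 each have 2 annotated starts with a window, of which 1 is shown. POLD2, whose arrays did not overlap either, held 0 E2F words and 2 CCAAT words and is not shown. Capitals mark E2F words and CCAAT, or the reverse complement of either, and sequences run 5' to 3' on the strand of the gene. A match is a description of these letters and shows no binding. The windows are chr20:33686386-33686635, minus strand for E2F1, chr12:132687343-132687592, minus strand for POLE, chr19:50384073-50384322, plus strand for POLD1, chr2:135876444-135876693, minus strand for MCM6, chr6:52284743-52284992, minus strand for MCM3, chr20:5126623-5126872, minus strand for PCNA and chr17:78187053-78187302, minus strand for TK1.
E2F1: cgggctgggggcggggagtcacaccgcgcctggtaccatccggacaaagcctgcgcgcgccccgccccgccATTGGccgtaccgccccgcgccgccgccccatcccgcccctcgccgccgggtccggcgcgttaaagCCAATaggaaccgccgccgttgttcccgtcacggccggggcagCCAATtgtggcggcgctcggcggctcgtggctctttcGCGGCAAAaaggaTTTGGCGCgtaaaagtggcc
POLE: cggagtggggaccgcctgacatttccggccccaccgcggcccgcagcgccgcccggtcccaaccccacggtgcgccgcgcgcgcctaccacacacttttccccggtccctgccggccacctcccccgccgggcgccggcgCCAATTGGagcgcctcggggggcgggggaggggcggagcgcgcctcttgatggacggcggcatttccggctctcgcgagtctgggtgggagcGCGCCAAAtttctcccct
POLD1: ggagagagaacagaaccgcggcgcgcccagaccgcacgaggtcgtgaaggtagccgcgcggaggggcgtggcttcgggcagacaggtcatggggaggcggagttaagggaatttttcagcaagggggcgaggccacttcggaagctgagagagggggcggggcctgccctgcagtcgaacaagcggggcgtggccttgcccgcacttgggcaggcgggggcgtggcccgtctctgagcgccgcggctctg
MCM6: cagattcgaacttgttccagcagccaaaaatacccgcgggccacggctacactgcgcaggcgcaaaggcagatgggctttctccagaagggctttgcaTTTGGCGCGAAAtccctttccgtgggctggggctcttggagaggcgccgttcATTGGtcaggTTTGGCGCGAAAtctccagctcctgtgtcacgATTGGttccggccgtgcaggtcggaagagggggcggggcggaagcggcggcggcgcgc
MCM3: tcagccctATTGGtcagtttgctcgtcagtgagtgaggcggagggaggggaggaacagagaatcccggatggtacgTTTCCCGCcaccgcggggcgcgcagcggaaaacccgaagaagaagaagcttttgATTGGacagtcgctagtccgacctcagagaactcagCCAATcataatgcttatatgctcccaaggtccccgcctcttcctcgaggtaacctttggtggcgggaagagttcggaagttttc
PCNA: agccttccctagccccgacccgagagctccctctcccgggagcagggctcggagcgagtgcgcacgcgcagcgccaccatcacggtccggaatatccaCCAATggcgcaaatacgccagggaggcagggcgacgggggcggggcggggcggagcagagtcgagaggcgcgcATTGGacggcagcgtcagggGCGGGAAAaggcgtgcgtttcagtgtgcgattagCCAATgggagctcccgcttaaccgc
TK1: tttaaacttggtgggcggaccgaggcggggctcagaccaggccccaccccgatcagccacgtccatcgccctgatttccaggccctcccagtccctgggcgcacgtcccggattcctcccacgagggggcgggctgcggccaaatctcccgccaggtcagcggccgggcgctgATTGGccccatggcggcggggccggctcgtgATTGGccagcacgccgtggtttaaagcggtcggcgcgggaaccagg
E2F1 held a TTTGGCGC that starts 20 bases before its own annotated start and a TTTGCCGC on the other strand 33 bases before it. In MCM6 each of the 2 runs that begin 152 and 90 bases before the start is a TTTGGCGC overlapping a TTTCGCGC of the opposite strand, with a CCAAT after each. The POLE window held TTTGGCGC and the PCNA window TTTCCCGC, both on the other strand, at 18 and 59 bases before the start. MCM3 held TTTCCCGC 174 bases before the start. It also held a TTTCGCGC that starts 4 bases before the start and runs past the printed bases. TK1 held 2 CCAAT words on the other strand, 77 and 46 bases before the start, and 0 of the E2F words searched. Its other window, which overlaps this one, held 0 of either kind. Both POLD1 windows held 0 of either kind, and the other PCNA window held 0 E2F words and 2 CCAAT words. Members with and without these words were not compared in expression.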

How the data were processed

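Probe set intensities on a linear scale, 1 per probe set and array, were taken from the table the authors deposited. Per the labels' protocols, Trizol was used for extraction and biotin for labelling. How probe sets were summarized, background-corrected and scaled is not given in the sources used here, and detection calls were not used. Log2(intensity + 32) was computed without further scaling, an offset that understates changes of dim genes. Of 22283 probe sets, 68 controls and those without exactly 1 symbol were left out of the tests. E1 was set against HCT116 by lmFit and eBayes (limma 3.58.1, R 4.3.3) over 11963 genes, with Benjamini-Hochberg adjustment over all of them, and E1 array 1 alone was fitted with the spread of HCT116. The number of arrays limits the precision. The fit was tested on simulated data.

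Gene lists and members were chosen with earlier results of these data known. Every member is named with its difference. Values on all arrays are given at an unadjusted p under 0.05 in either fit, and for E2F1, PCNA and the 2 members nearest 0. Up to 4 genes with the smallest p are named from each other list. FEN1, MCM7, RFC1, RFC2, RFC3 and RFC5 probe sets were chosen after their values were seen. Alternatives changed the scaling, offset, filter, probe sets, variance model, replicate block, arrays and RNA quality covariate. Promoter sequences are from RefSeq, whose build is not tied to the array.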

Additional observations from a re-analysis of the deposited data

How the results depend on the processing

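Over 18 alternatives none of the replication genes passed the adjusted threshold except in the fit without E1 array 1, which called MCM5 and POLD1. That fit called 1073 of all 11963 genes, 7.33% lower and 1.64% higher. Leaving out each array in turn gave 0 to 2 members called, 5 to 12 lower at an unadjusted p under 0.05 and a median between -0.55 and -0.11. The count of all genes called was 50, and ran from 2 to 1073 over the alternatives. Deviations of same-numbered arrays of the 2 lines correlated across genes at -0.06, -0.36 and -0.12. Those of differently numbered arrays correlated between -0.14 and 0.25. The E1 deviations include arrays with high 3' to 5' ratios, so these values cannot tell whether the arrays were paired. With the replicate block 8 members were lower, 0 were called, and 2 of all genes were called in place of 50.

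Some genes changed sign in some settings. With E1 array 1 alone these were ORC2 (-0.064), ORC3 (-0.23), ORC4 (-0.22), ORC6 (-0.35), CDC7 (-0.26), RFC2 (0.22), RFC4 (-0.57), RPA1 (-0.30), RPA3 (-0.50), FEN1 (-0.57) and LIG1 (0.19). With the GAPDH ratio as a covariate they were ORC2 (-0.087), ORC3 (-0.16), ORC4 (-0.20), ORC6 (-0.29), CDC7 (-0.23), RFC2 (0.29), RFC4 (-0.54), RPA1 (-0.28), RPA3 (-0.44), FEN1 (-0.54) and LIG1 (0.17). Subtracting array medians turned GINS1 (0.027), PCNA (0.026), RFC1 (0.085), POLA1 (0.0047), PRIM1 (0.058) and RRM1 (0.066), and quantile normalization turned RFC1 (0.028), POLA1 (0.036) and LIG1 (0.012). Averaging all probe sets per gene turned FEN1 (-0.67), and the second brightest probe set, an alternative chosen after seeing the data, turned FEN1 (-1.54) and RPA1 (-0.15). Leaving out probe sets with an _x_at or _s_at suffix turned RFC1 (0.16) and CDKN2D, a kinase inhibitor outside the 42 genes (0.040), and 32 members were tested. The RFC1 probe set left there read at most 12.5 on any array, below the offset of 32. Leaving out each array in turn gave ranges across 0 for ORC6 (-0.024 to 0.57), CDC7 (-0.018 to 0.36), GINS1 (-0.61 to 0.21), PCNA (-0.42 to 0.20), RFC1 (-0.33 to 0.27), RFC2 (-0.47 to 0.11), RFC3 (-0.46 to 0.11), RFC4 (-0.14 to 0.42), PRIM1 (-0.37 to 0.21), POLE2 (-0.59 to 0.15), RPA1 (-0.082 to 0.37), RPA2 (-0.48 to 0.11), RPA3 (-0.14 to 0.48), FEN1 (-0.19 to 0.59) and RRM1 (-0.35 to 0.23). The cause of these changes was not tested.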

Other observations

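Of 30 measured genes of the E2F and RB family and their cyclins, kinases and inhibitors, 5 were lower in E1 (16.7%, against 9.7% of all genes) and 3 higher (10%, against 5.29%) at an unadjusted p under 0.05, with a median of -0.04 over all arrays and -0.30 on E1 array 1 alone, where 1 was lower and 1 higher. None passed the adjusted threshold in limma. Whether this list differs from the replication genes was not tested. HCT116 array 2 was the lowest of its line for 15 of the 30 (50%, against 44.6% of all genes), and for 40 of the 42 replication genes. MYBL2, an E2F target that acts in late S and G2, stood at -1.87 (SE 0.47, adjusted p = 0.185) and at -1.31 on E1 array 1 alone. Of 6 measured cyclin-dependent kinase inhibitors, CDKN1B and CDKN1C read higher on every E1 array than on any HCT116 array, as did 8.18% of all genes. CDKN1A and CDKN2D read lower on every E1 array, as did 10.7% of all genes, and CDKN2A and CDKN2B overlapped. CDKN1B, which encodes p27, read 291, 277 and 230.1 on the HCT116 arrays and 384, 441 and 611 on the E1 arrays, all above, at 0.76 (SE 0.20, adjusted p = 0.206) and 0.49 on E1 array 1 alone. CDKN1A, which encodes p21 and is a p53 target, read 729, 1266 and 1373 against 637, 443 and 516, all below, at -0.999 (SE 0.27, adjusted p = 0.215) and -0.74 on E1 array 1 alone. CDKN2D stood at -0.94 (SE 0.25) and -0.37, but at 0.040 when probe sets with an _x_at or _s_at suffix were left out, so its direction depends on the probe set. CDKN1C, CDKN2A and CDKN2B, named after their values were seen, stood at 0.72, -0.36 and -0.047 over all arrays and at 0.61, 0.46 and 0.0022 on E1 array 1 alone.

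Of 26 measured mitosis genes 3 were lower at an unadjusted p under 0.05 (11.5%, against 9.7% of all genes) and 0 higher, with 0 passing the adjusted threshold in limma, a median of 0.10 over all arrays and -0.39 on E1 array 1 alone, where 0 were lower or higher. MKI67, the proliferation antigen, read 804, 263 and 676 in HCT116 and 214, 289 and 144 in E1, at -1.22 (SE 0.43, adjusted p = 0.284) and -1.18 on E1 array 1 alone. The mitotic kinase PLK1 stood at -1.57 (SE 0.57) over all arrays and -0.46 on E1 array 1 alone, the phosphatase CDC25B at -0.79 (SE 0.28) and -0.17, and the centromeric histone CENPA at -0.44 (SE 0.20) and -0.40. In the limma fit without E1 array 1, 2 of the 26 mitosis genes were called, PLK1 and CDC25B, both lower (adjusted p = 0.0429 and 0.00984). Of the 30 genes of the E2F and RB list 5 were called there. CDKN2D, E2F4 and CCND1 were lower (adjusted p = 0.00701, 0.0099 and 0.00653), and CDKN1B and E2F3 were higher (0.0466 and 0.0166). Of all genes 7.33% were called lower and 1.64% higher in that fit.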
